A study of Homo sapiens with 7 samples.

Results

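The 10 genes described here are Wnt target and feedback genes of the colon: *AXIN2*, *NKD1*, *NOTUM*, *RNF43*, *ZNRF3*, *LGR5*, *ASCL2*, *TCF7*, *LEF1* and *SP5*. They were chosen by name, with earlier results of these data known. A ChIP-seq peak was counted for a gene when its centre lay inside the gene span (GRCh38) or within 10 kb of it. By this rule 68 of the 37164 peaks in the 6 lists belonged to them, out of 20037 protein-coding genes that were searched in the same way. The cells were DLD-1, an established human colon adenocarcinoma line, all carrying a retrovirus for MycER, a fusion of MYC with an estrogen receptor domain that 4-hydroxytamoxifen switches on. MYC was immunoprecipitated after 8 hr of activation (2 libraries), and ATF4, which acts as a transcription factor in the integrated stress response, after 8 hr of activation (2 libraries) and in control cells (2 libraries). Activation used 500 nM of the inducer, the labels' protocol gives vehicle as the alternative to it, and cells given the inducer without MycER were not analysed here. Nor was MYC precipitated from control cells analysed, so no MYC value below shows a response to activation. An IgG precipitation completes the series and was not used as a list of its own.

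In Wnt signalling, a Wnt ligand bound to Frizzled and LRP receptors stops the destruction of beta-catenin, which enters the nucleus and switches on genes together with TCF and LEF proteins. Several of the genes it switches on act back on the pathway: AXIN2 scaffolds beta-catenin destruction, NKD1 binds Dishevelled, NOTUM removes the lipid of Wnt ligands, and RNF43 and ZNRF3 are membrane ubiquitin ligases that remove Frizzled receptors. LGR5, a receptor for R-spondins, and ASCL2, a transcription factor, mark stem cells at the base of intestinal crypts, while TCF7, LEF1 and SP5 are transcription factors whose genes respond to the pathway. In colon cancer the pathway is commonly active without ligand, through loss of APC, as in DLD-1 cells, and *MYC* is itself among its target genes.

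MYC peaks lay at all 5 feedback inhibitors, at *LGR5* and at *LEF1* in both libraries, and at *ASCL2*, *TCF7* and *SP5* in replicate 2 alone. The strongest was inside *ZNRF3*, with a normalized tag count (tags at the peak per 10 M tags of the library, M standing for 10 to the power 6, called tags here) of 12.4 in replicate 1 and 22.2 in replicate 2. *ZNRF3* and *RNF43* also had the most regions, 6 and 4 that both libraries shared. In all, 7 of the 10 genes had a MYC region in both libraries, that is, peaks of both that overlapped by at least 1 bp. Among all protein-coding genes 25.2% met this rule. In replicate 1 alone the count was 7 of 10 against a background of 29.7%, and in replicate 2 alone 10 of 10 against 59.5%. The list was given no test of enrichment. Depth goes with the replicate number, with 21.05 M tags in replicate 1 and 50.1 M in replicate 2, as read from the tag counts on the usual HOMER scale of 10 M. Whether the replicates are separate cultures is not in the labels, so their spread may be technical.

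**Figure D1:**
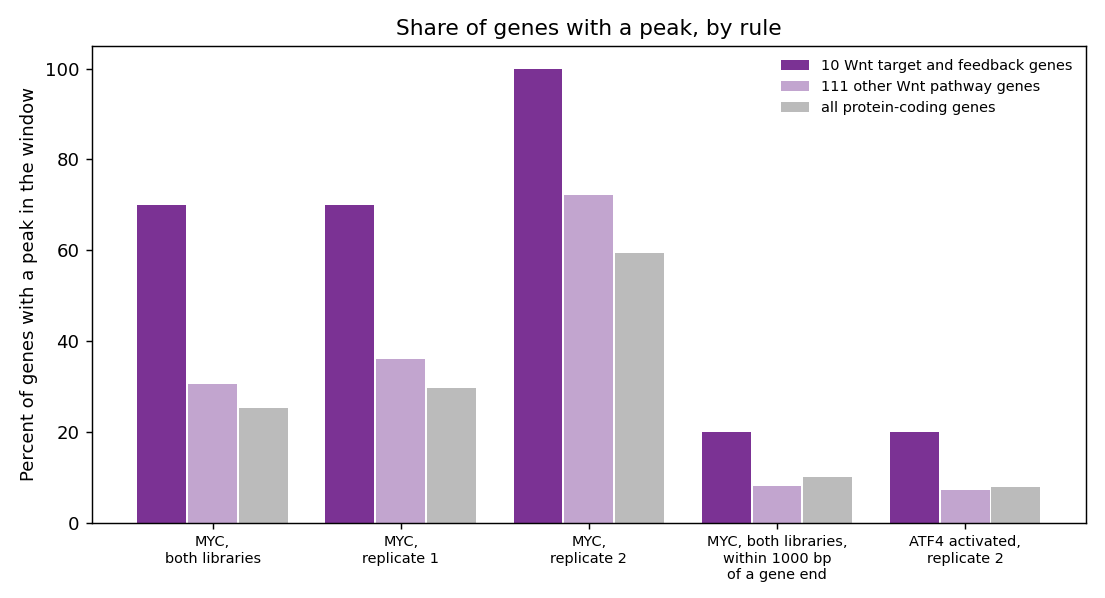
Percent of genes with a peak in the window (y axis) by factor and rule (x axis), for the 10 Wnt target and feedback genes, 111 other Wnt pathway genes and all protein-coding genes. With a MYC peak required in both libraries, 7 of the 10 genes had one, against 30.6% of the other pathway genes and 25.2% of all genes.

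Gene length enters this count, because a longer gene has a wider window. The 10 genes had a median span of 52.5 kb, against 24.1 kb over all protein-coding genes. Among genes with a span of 100 kb or more 34.3% had a MYC region in both libraries, and all 4 listed genes of that size did (*ZNRF3*, *LGR5*, *LEF1* and *NKD1*). For spans of 10 to 100 kb the background was 26.1%, with *RNF43* and *AXIN2* having a region and *TCF7* not. Under 10 kb it was 18.1%, with *NOTUM* having a region and *ASCL2* and *SP5* not. Close to the gene the picture differed: within 1000 bp of either end of the span, only *AXIN2* and *ZNRF3* had a MYC region in both libraries, against a background of 10.0%. In replicate 2 alone *RNF43*, *LEF1*, *ASCL2* and *SP5* had one there too, 6 of 10 against 31.9%.

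The feedback inhibitors are described first. *ZNRF3* (chromosome 22, 28883572 to 29057488, a span of 173.9 kb) had 12 MYC regions, of which 6 were in both libraries, 4 in replicate 1 alone and 2 in replicate 2 alone. Only 13 protein-coding genes had 6 or more such regions in their windows. Relative to window length the gene stood less far out, with 3.09 regions per 100 kb, above 67.8% of the 5048 genes that had any. Its strongest region (chromosome 22, 28907425 to 28907604) lay 23942 bp inside the gene. The 12.4 tags of replicate 1 there rested on 26 reads (exact 95% Poisson interval 8.07 to 18.1 tags, which covers counting error only), and the 22.2 tags of replicate 2 lay above that interval. This peak ranked 496 of 8636 in replicate 1 and 267 of 22532 in replicate 2.

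Of the *ZNRF3* regions, 6 fell in a stretch of 21.1 kb in the first part of the span by coordinate, and 3 of these were in both libraries. Beside the strongest one, the region at 28924063 to 28924244 had 10.9 and 16.4 tags in replicates 1 and 2, and the region at 28920908 to 28921139 had 10.5 and 12.8. Toward the other end of the gene, 29039166 to 29039366 had 7.13 and 18.0 tags, the largest difference between replicates among the shared regions of the gene, and 29005020 to 29005232 had 6.18 and 10.2. Both of these were nearer to an end of *ZNRF3-AS1*, at 7790 and 19873 bp, than to one of *ZNRF3*. Just outside the span, 869 bp from its lower end, a region (28882612 to 28882793) had 7.13 and 7.98 tags. It also had the lowest fold over the background library among the shared regions of all 10 genes, 3.86 and 4.32 in the authors' lists. Among the regions of replicate 2 alone, 29031656 to 29031832 (6.99 tags) lay 268 bp from an end of *ZNRF3-AS1*. One of replicate 1 alone, 29062522 to 29062670 (5.23 tags), lay inside the neighbouring gene *C22orf31*.

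*RNF43* (chromosome 17, 58352500 to 58417534) had the most regions of the 10 genes, 13, of which 4 were in both libraries, 7 in replicate 2 alone and 2 in replicate 1 alone. Its density of shared regions, 4.7 per 100 kb of window, exceeded that of 90.9% of genes with any. The strongest shared region (58360583 to 58360759) had 8.08 and 12.2 tags in replicates 1 and 2. It was followed by 58391665 to 58391845 with 6.65 and 10.8 tags, 58381280 to 58381496 with 6.18 and 7.18, and 58357377 to 58357553 with 7.61 and 6.99. That last region was the only one of the 16 shared regions at the 10 genes that was higher in replicate 1. All 4 lay inside the gene, and each except 58391665 to 58391845 was nearer to an end of *TSPOAP1-AS1* than to one of *RNF43*.

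At the start of *RNF43* itself a MYC peak was listed in replicate 2 only (58417522 to 58417698, 6.99 tags, 15.12-fold over background). Its centre lay 76 bp from a transcription start annotated by RefSeq, so the promoter is shown, from 250 bases before the start to 50 after it (GRCh38.p14, chr17:58417485-58417784, minus strand), with the 177 bases under the peak in capitals:
RNF43: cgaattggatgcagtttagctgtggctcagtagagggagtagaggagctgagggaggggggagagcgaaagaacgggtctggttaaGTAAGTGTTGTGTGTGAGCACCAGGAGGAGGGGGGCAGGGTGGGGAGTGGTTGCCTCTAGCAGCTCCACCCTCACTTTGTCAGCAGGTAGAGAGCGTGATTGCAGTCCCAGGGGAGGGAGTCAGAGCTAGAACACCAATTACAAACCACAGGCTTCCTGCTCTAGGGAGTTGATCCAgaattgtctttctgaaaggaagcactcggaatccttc
A second peak, of replicate 1 only (58419336 to 58419484, 5.7 tags), lay 1876 bp from the gene and nearer to *HSF5*, whose end was 757 bp away. Both libraries thus listed a peak near this end of the gene, but not at the same place.

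*AXIN2* (chromosome 17, 65528563 to 65561648) had 7 MYC regions and 1 in both libraries. This region (65562039 to 65562280) lay 511 bp beyond the upper end of the span and had 4.75 tags in replicate 1 and 15.2 in replicate 2. As a ratio, the replicates were further apart here than at any other shared region of the 10 genes. The 10 reads of replicate 1 gave an interval of 2.28 to 8.74 tags, which does not reach the value of replicate 2. In replicate 2 the peak was in the top 4.77% of the list, while in replicate 1 it shared the rank of 5765 of 8636. The other peaks lay inside the gene, 4 of replicate 2 (6.59 to 11.2 tags) and 2 of replicate 1 (4.75 and 5.23 tags), and none of them overlapped a peak of the other library. The 2 strongest of these, 65531662 to 65531838 with 11.2 tags and 65530191 to 65530367 with 8.18, lay 3187 and 1716 bp from the lower end of the span.

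*NKD1* (chromosome 16, 50548396 to 50649249) had 5 regions, all inside the gene, and the shared one (50602658 to 50602871) was the strongest, with 6.18 and 11.4 tags in replicates 1 and 2. This region was overlapped by *NKD1-AS1*, whose end was 152 bp away and which was nearer than an end of *NKD1* to all 5 regions. The regions of replicate 2 alone had 4.99, 5.19, 9.38 and 8.98 tags. At *NOTUM* (chromosome 17, 81952507 to 81961187) the single region, 81968020 to 81968198, had the same 6.18 and 11.4 tags. It lay 6922 bp outside the span and inside the locus *LOC124904087*, so that the window rule and not the gene's own span assigned it to *NOTUM*.

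**Figure D2:**
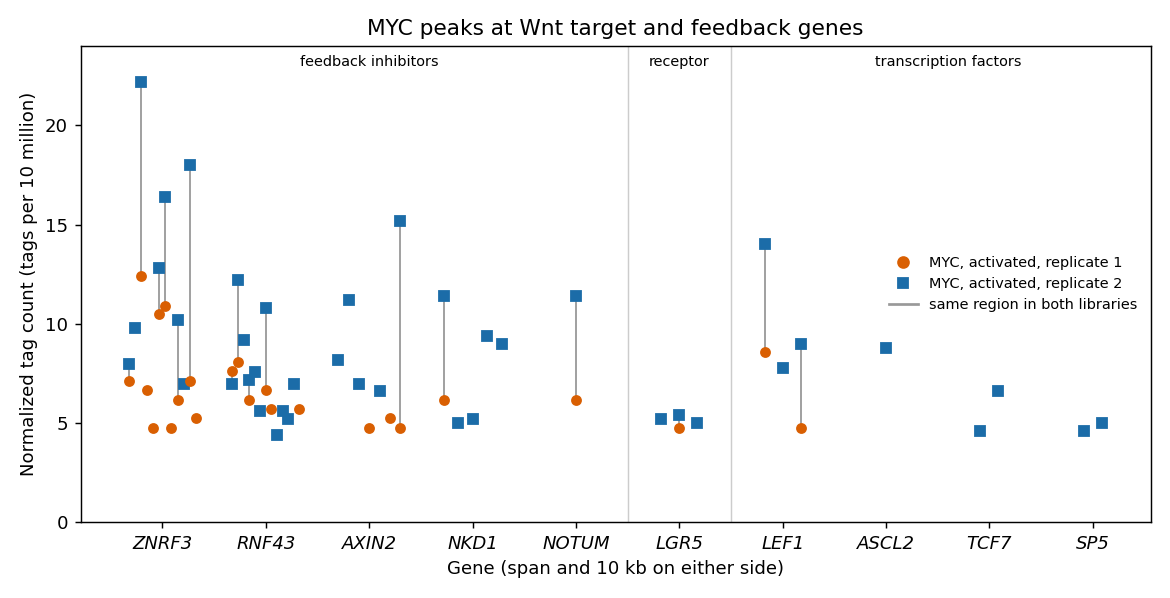
Normalized tag count of each MYC peak (y axis, tags per 10 M) at the 10 genes (x axis). Circles are replicate 1, squares replicate 2, and grey lines join peaks of the same region. The highest pair is at *ZNRF3* (12.4 and 22.2), and *ASCL2*, *TCF7* and *SP5* have squares only.

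The stem cell receptor gene *LGR5* (chromosome 12, 71439129 to 71586310) had 3 MYC regions, all inside the gene. The shared one (71469393 to 71469569) lay 30352 bp from the lower end of the span and 18649 bp from *LOC124902962*. It had 4.75 and 5.39 tags, the lowest pair among the genes with a shared region. Replicate 2 had 2 more with 5.19 and 4.99 tags, and the first of these, 1331 bp inside the lower end of the span, was overlapped by *LOC124902962*. The 3 values of replicate 2 lay close to the median of its whole list, 4.99 tags.

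Among the transcription factor genes, *LEF1* (chromosome 4, 108047548 to 108168932) was the only one with shared regions. The stronger (108166532 to 108166713) had 8.56 and 14.0 tags in replicates 1 and 2 and lay 321 bp from the transcription start that RefSeq lists, on its upstream side and still inside the span. An end of *LEF1-AS1* was 902 bp away, nearer than the end of the *LEF1* span at 2309 bp. The region reached 20 bases into the promoter window (GRCh38.p14, chr4:108166252-108166551, minus strand), shown here with those bases in capitals:
LEF1: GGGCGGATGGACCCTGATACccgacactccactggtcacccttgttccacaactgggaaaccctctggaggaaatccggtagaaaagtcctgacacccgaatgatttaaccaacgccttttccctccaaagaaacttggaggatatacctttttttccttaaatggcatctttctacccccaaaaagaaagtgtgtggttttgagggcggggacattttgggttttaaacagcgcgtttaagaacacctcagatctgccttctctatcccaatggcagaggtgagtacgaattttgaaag
The other shared region (108173405 to 108173581) had 4.75 and 8.98 tags, lay 4561 bp outside the span, was overlapped by *LEF1-AS1* and was nearer to *LOC124900752*, 2523 bp away. A further region (108169124 to 108169300, 7.78 tags in replicate 2 alone) was overlapped by *LEF1-AS1* and *LOC124900752*. Thus all MYC peaks of the window were at 1 end of the gene, and the rest of its 121.4 kb held none.

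**Figure D3:**
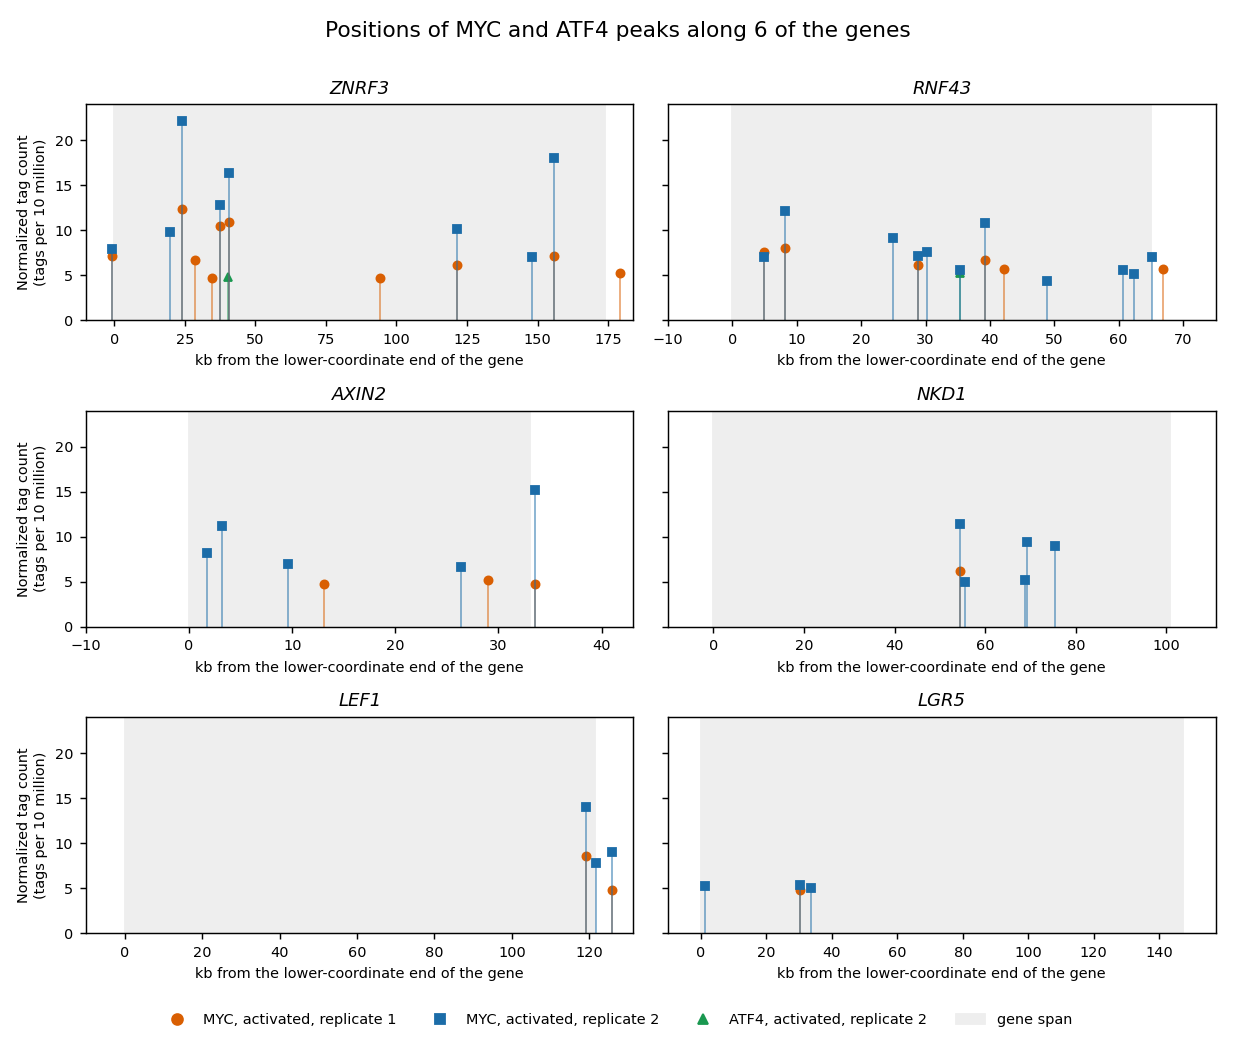
Normalized tag count of MYC peaks of replicates 1 and 2 and of ATF4 peaks of activated replicate 2 (y axis, tags per 10 M) against the distance from the lower-coordinate end of the gene (x axis, kb), for 6 genes with the gene span in grey. Peaks are spread along *ZNRF3* and *RNF43* and lie at 1 end of *LEF1*.

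*ASCL2* (chromosome 11, 2268498 to 2270588) had a single MYC peak, 135 bp beyond the upper end of the gene (2270635 to 2270811), with 8.78 tags in replicate 2 and none listed in replicate 1. *TCF7* (chromosome 5, 134108218 to 134148210) had 2 peaks inside the gene in replicate 2, with 6.59 and 4.59 tags, the second 1203 bp from a listed transcription start. *SP5* (chromosome 2, 170715337 to 170718078) had 2 weak peaks in replicate 2, with 4.99 tags at 170715621 to 170715797 and 4.59 at 170711806 to 170711982. Both were overlapped by *ERICH2-DT*, and the second also by *LOC100130256*. Replicate 1 listed no peak at these 3 genes. Its lowest listed tag count was 3.8, but the minimum of a list is not a calling limit for a given place. Shared MYC regions also ran higher in replicate 2 (median ratio 1.39), so a missing peak does not show missing signal.

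The first *SP5* peak lay 235 bp past its promoter window (GRCh38.p14, chr2:170715087-170715386, plus strand). The window is shown because it held 3 matches of CTTTGA or its reverse complement TCAAAG, the core of the TCF/LEF site, in capitals:
SP5: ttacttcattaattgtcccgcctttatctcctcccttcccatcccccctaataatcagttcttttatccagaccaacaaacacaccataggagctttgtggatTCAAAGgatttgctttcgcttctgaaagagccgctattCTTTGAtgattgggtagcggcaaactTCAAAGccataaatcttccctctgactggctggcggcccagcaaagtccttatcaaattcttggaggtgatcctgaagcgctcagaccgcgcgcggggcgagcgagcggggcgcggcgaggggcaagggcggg
Of 35116 RefSeq promoters of this length 12.9% held at least 1 such match and 0.0997% at least 3. RefSeq windows were listed for 4 of the 10 genes (*RNF43* and *TCF7* with 2 each, *LEF1* and *SP5* with 1). Outside *SP5* none of these windows held CTTTGA on either strand, and none of the 6 held the E-box CACGTG, which 7.26% of all promoters held, or TGATGNAA, a core of the ATF4 site, on either strand, which 3.62% held.

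By the strongest peak in the window, averaged over the 2 MYC libraries, the order was *ZNRF3* (17.3 ± 6.93 tags), *LEF1* (11.3 ± 3.85), *AXIN2* (10.2 ± 7.05), *RNF43* (10.1 ± 2.91), *NKD1* and *NOTUM* (8.79 ± 3.69 each) and *LGR5* (5.07 ± 0.453; SD, n = 2 each). For *AXIN2* the strongest peaks of the 2 libraries were at different places. The values of neighbours in this order overlapped between replicates, except that both *LGR5* values lay below both of *NOTUM*. Within each library *ZNRF3* was highest, and it exceeded 90.9% and 97.2% of all genes with a peak in replicates 1 and 2. Below it the order changed: next was *LEF1* in replicate 1 (8.56 tags) and *AXIN2* in replicate 2 (15.2 tags). *LEF1* exceeded 75.3% and 87.4%, *RNF43* 71.4% and 83.2%, and *AXIN2* 26.1% and 89.7%. At the low end, *LGR5* exceeded 8.9% and 39.6%, and *SP5* 34.4% in replicate 2. The 3 other genes most like *ZNRF3* in their strongest tags over the 6 libraries (Euclidean distance on log2(tags + 1)) were *NAV2* (0.149), *GPRC5A* (0.152) and *UBXN8* (0.208). A library without a listed peak entered as 0, which is not a measured value. For all of these genes that held for every ATF4 library but activated replicate 2.

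**Figure D4:**
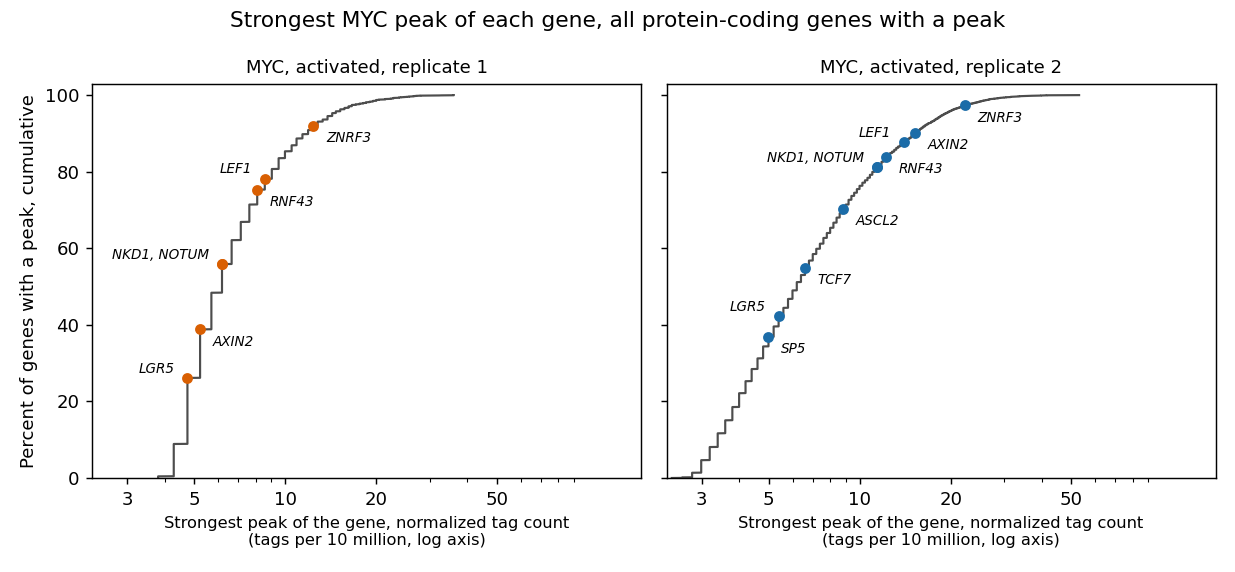
Cumulative percent of protein-coding genes with a MYC peak (y axis) against the tags of their strongest peak (x axis, log scale), for replicate 1 on the left and replicate 2 on the right, with the 10 genes marked where they have a peak. *ZNRF3* is the highest of the marked genes in both libraries, and *LGR5* is the lowest of them in replicate 1, at 4.75 tags.

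As a group, the MYC peaks at the 10 genes were 24 in replicate 1, with 4.75 to 12.4 tags and a median of 6.18 against 5.7 over the whole list, and 41 in replicate 2, with 4.39 to 22.2 tags and a median of 7.78 against 4.99. Their median fold over the background library was 9.95 and 12.7 in replicates 1 and 2, against 9.26 and 7.78 over the lists. They formed 49 regions, of which 16 were in both libraries, 8 in replicate 1 alone and 25 in replicate 2 alone. Much of this group came from 2 genes. *ZNRF3* had 10 and 8 of the peaks in replicates 1 and 2 and 6 of the shared regions, and *RNF43* had 6 and 11 peaks and 4 shared regions. Of the shared regions 15 were higher in replicate 2, with a median ratio of 1.63 to replicate 1. Over all 6313 shared MYC regions 84.0% were higher in replicate 2 and the median ratio was 1.39. In position, 12 of the 16 lay inside the gene (75.0%, against 73.9% of the 4862 shared regions in the window of any protein-coding gene). Within 1000 bp of an end of a protein-coding gene lay 2 of the 16 (12.5%, against 36.1%). Counted by gene, the same distance gave 2 of 10 against 10.0%, so the 2 counts differ in direction. Span ends are not all starts: the *LEF1* region 321 bp from a listed start was not near one.

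The authors' fold over the background library rests on few reads of that library at these genes. Its control tags, not on the scale of 10 M, were listed at 0.2 to 3.9 (median 1.5, scaled to the MYC library) in replicate 1 and at 0.5 to 9.0 (median 3.0) in replicate 2, so its highest values are not ranked here. The lowest fold among all MYC peaks at the 10 genes was 2.5, at a peak of replicate 2 inside *NKD1* (50617083 to 50617259) with 9.0 control tags.

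ATF4 was then compared between activated and control cells. None of the 10 genes had an ATF4 peak in both activated libraries, nor in both control libraries, where the backgrounds were 1.4% and 0.524% of protein-coding genes. Single libraries listed 3 peaks. In activated replicate 2, *RNF43* had one with 5.22 tags (58387727 to 58387931) and *ZNRF3* one with 4.82 tags (28923953 to 28924157), 2 of 10 genes against a background of 7.76%. In control replicate 1, *ASCL2* had one with 5.36 tags 4116 bp beyond the gene (2274612 to 2274796), 1 of 10 against 2.95%. Activated replicate 1 and control replicate 2 had no peak at any of the 10 genes, with backgrounds of 4.28% and 5.37%. At the *RNF43* and *ZNRF3* places no peak was listed in activated replicate 1 or in control replicates 1 and 2. The lowest tag counts in those lists were 3.21, 4.46 and 2.98. A list minimum is not a calling limit for a given place, so the signal there in those libraries is not known. A fold change between conditions could not be formed at any of the 10 genes, because the lists give no value where no peak was called. For 105 regions that every ATF4 library listed, none of them at these genes, limma could compare the conditions. Tags were higher after activation at 39 (37.1%) and lower at 0 by an adjusted p under 0.05, and the counts were 57 and 0 at an unadjusted p under 0.05. On the log2 scale these regions had a median difference of 0.54, activated minus control. With 1 of the 4 libraries left out, which leaves few degrees of freedom, it was 0.43 to 0.67, and 0 regions passed by adjusted p. The direction changed with the scaling: centring each library on its median over these regions gave 0 higher and 9 lower. That step takes out any shift the regions share, so it cannot tell a common change from a difference in scaling.

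Both single-library ATF4 peaks of activated cells lay on MYC regions. At *ZNRF3* the ATF4 peak overlapped by 95 bp the MYC region with 10.9 and 16.4 tags, and their centres were 98 bp apart. At *RNF43* it overlapped by 131 bp a MYC peak of 5.59 tags that only replicate 2 listed, with centres 60 bp apart. Over the whole list, 12.7% of the 2231 ATF4 peaks of activated replicate 2 overlapped a MYC peak of replicate 2, and 4.8% one of replicate 1. The *ASCL2* peak of control cells was 3981 bp from the nearest MYC peak of its window.

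Other genes of the pathway were counted by the same rule. Of 111, 34 had a MYC region in both libraries (30.6%, against 25.2% of all genes). Those were 6 of 19 Wnt ligands, 1 of 6 R-spondins and LGR receptors, 4 of 15 Frizzled, LRP and related receptors, 3 of 15 secreted and membrane antagonists, 7 of 19 signal transducers, 5 of 14 TCF factors and nuclear co-factors and 8 of 23 further target and crypt genes. Within 1000 bp of a gene end the direction was the other way. There 9 of the 111 had a region in both libraries (8.11%, against 10.0%), and 27 had a peak in replicate 2 (24.3%, against 31.9%). In both libraries 2 of the genes named here, *LGR6* and *NKD2*, had more tags than any of the 10. *LGR6*, a relative of *LGR5*, had 28.0 and 40.3 tags in replicates 1 and 2 inside the gene. *NKD2*, the paralog of *NKD1*, had 25.7 and 29.3 at a region 5163 bp outside it. That region was nearer to *LOC112268330*, 2138 bp away, and the gene annotation used here also places it within the span listed for *GTF2H2C_2*. In at least 1 library the next ones fell below *ZNRF3*. *CCND1*, the cyclin D1 gene, had 13.8 and 21.4 tags, *SMOC2*, a secreted crypt protein gene, 19.0 and 14.6, and the ligand gene *WNT2B* 11.4 and 22.6. The co-receptor gene *LRP5* had 9.51 and 18.8, and *KREMEN2*, whose product binds Dickkopf proteins, 5.23 and 18.6. *TCF7L2*, the main TCF gene of colon epithelium, had a shared region inside it with 4.75 and 13.2. Markers of colon epithelium had a MYC region at 5 of 10 genes, with the most tags at *KRT8*, *CDH1* and *CDX2*, and markers of blood cells, fibroblasts and neurons at 1 of 5, 2 of 6 and 1 of 5. Binding is no measure of expression, so these counts do not test the identity of the cells.

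An ATF4 peak in both activated libraries was found at 3 of the 111 genes (2.7%, against 1.4%). *CDKN1A*, the cell cycle inhibitor p21, had 4.01 and 5.83 tags in activated replicates 1 and 2, 9231 bp outside the gene. Its peaks were 8.68-fold and 12.61-fold over background, and no peak was listed in control cells. *TCF7L1*, a TCF factor, had 6.01 and 4.42 tags inside the gene, 5.21-fold and 2.73-fold over background, and no listed peak in control cells. The lowest tag counts of the control lists were 4.46 and 2.98 in replicates 1 and 2. A list minimum is not a calling limit for a given place, so the control signal at *CDKN1A* and *TCF7L1* is not known. *MYC* had a peak inside the gene in all 4 libraries, with 7.22 and 8.04 tags in activated and 9.38 and 7.16 in control replicates 1 and 2. Its fold over the background library was low, 1.95 and 1.83 in activated and 2.39 and 1.55 in control cells, so the background library had many reads at that place too. All cells carried MycER, and the peak lists cannot tell reads of its MYC part from reads of the *MYC* gene. The *MYC* peak, 1 of the 3 counted here, is therefore no sure sign of ATF4 at this gene.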

How the data were processed

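ChIP-seq peak lists of 6 libraries were used, with peaks called in each library by itself. Per the submitters' processing notes the tools were Bowtie 0.12.9 and HOMER, on hg38; settings are not given in the sources used here. Per the file headers, the normalized tag count is the signal of a peak, normalized by the authors. Its scale was taken as the HOMER default of 10 M tags (M, 10 to the power 6), which the headers do not state and on which every depth given here rests. Per peak, the deposited files add a score, a focus ratio (a fraction), the fold over a background library (a ratio) and its p-value, all the authors' own, and total tags. In the deposited files total tags were a whole count for replicate 1 and scaled for replicate 2. The header does not name the background library.

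The genes and lists were chosen with earlier results of these data known. Gene spans came from RefSeq (GRCh38.p14), 1 older symbol was matched by synonym, and 111 of 111 further pathway genes matched. Peaks of 2 libraries that overlapped by at least 1 bp formed a region. A gene end is either end of the span. ATF4 signal was compared over all regions that every ATF4 library listed by limma 3.58.1 with a trend in R 4.3.3 on log2(tags + 1), a scale that understates changes of weak regions, with Benjamini-Hochberg adjustment, after a test of the script on simulated data. Promoter sequences are from RefSeq. Poisson intervals are exact and cover counting error only. Depth was 21.05 to 24.95 M tags in replicate 1 and 49.75 to 50.3 M in replicate 2. From each further list the text names at most the 3 genes with the highest mean MYC tags, and every gene with an ATF4 peak in both activated libraries. Alternatives covered the window, the peak threshold, the libraries, the pseudocount, the scaling and a replicate block.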

Additional observations from a re-analysis of the deposited data

How the results depend on the processing

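The count of 7 genes with a MYC region in both libraries was 2 within 1000 bp of a gene end, 5 inside the span, 8 with a window of 50 kb and 10 with a peak in at least 1 library. It was 7 with a 4-fold minimum over background, with peaks from 3.8 tags up, with any overlap of peak and window, and when the peaks of both libraries did not have to overlap, an alternative chosen after seeing the data. Leaving out replicates 1 and 2 in turn gave 7 to 10. The share of all genes moved with the same choices, to 10.0%, 14.3%, 43.2% and 60.8% for the first group named, and was 23.2% with the 4-fold minimum, 28.4% without the overlap, 29.7% to 59.5% with 1 library and 14.1% over all annotated genes. The 0 genes with an ATF4 peak in both activated libraries became 2 with a peak in at least 1 library and ranged from 0 to 2 with 1 library left out. For control cells the values were 1, and 0 to 1. The 39 ATF4 regions past the limma threshold became 0 with the replicate block (37 higher and 0 lower at an unadjusted p under 0.05) and 9, all lower, with each library centred on its median, which moved the median log2 change from 0.54 to -0.11. Leaving out 1 ATF4 library at a time gave 0 to 0, the single library of a group being taken to vary as the other group does, with 24 to 47 regions higher at an unadjusted p under 0.05. The cause was not tested. The labels give no pairing beyond the replicate number. Deviations of same-numbered libraries from their group means had a correlation of 0.1 across the 105 regions, which are not independent. A shift shared by all regions of a library does not enter this correlation, so it cannot tell whether same-numbered libraries were handled together. Depth went with the replicate number for ATF4 too, 22.4 and 24.95 M tags in replicate 1 against 50.3 and 49.75 M in replicate 2 (control and activated). Count tests with edgeR and DESeq2 were not run, since replicate 2 lists hold no whole counts. The lowest listed MYC peak had 3.8 tags in replicate 1 and 2.39 in replicate 2, and the part of depth in peaks missing from replicate 1 was not tested.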
